A study of Caenorhabditis elegans with 6 samples.

Results

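The genes srw-85 (WBGene00005832) and W06A11.4 (WBGene00021055) are 2 of the 20182 genes counted in early embryos of Caenorhabditis elegans. They were chosen because both had more transcript in each of the mutant genotypes than in wild-type, so their levels in the mutants against wild-type are given as a description with no test. With them go the 89 of 200566 consecutive windows of 500 bp that lie over the genes or within 10 kb of them, 45 around srw-85 and 44 around W06A11.4. Embryos of 3 genotypes were collected, each from 2 separate cultures: strain GW638, deleted for both met-2 and set-25, strain GW828, deleted for cec-4, and strain GW1, the wild-type. All were grown synchronously in liquid culture at 20 °C until the adults carried early embryos, a time that varied with the strain per the labels, and RNA was sequenced after removal of ribosomal RNA. Each genotype is represented by a single strain, and the extracts are of whole embryos.

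In C. elegans, MET-2 and SET-25 are methyltransferases that place methyl groups on lysine 9 of histone H3 (H3K9), a mark of silent chromatin that is dense on the outer parts of the chromosomes. CEC-4, which carries a chromodomain and sits at the inner nuclear membrane, binds this mark and holds marked chromatin at the nuclear periphery. It reads the methylation and does not place it. The srw genes form a large family of predicted chemoreceptors, proteins with several membrane-spanning helices that worms use chiefly in sensory neurons, and many genes of such families stand in clusters on the arms of chromosome V. A pseudogene is a gene copy that has lost an intact reading frame but may still be transcribed.

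The annotation (WBcel235) placed srw-85 on chromosome V at chrV:19429387-19431136 on the minus strand, as a protein-coding gene that spans 1750 bp. Its coding transcript, C25F9.1a.1, has 5 exons with 1155 bp in all, and a non-coding transcript of the gene, C25F9.1d, has 4 exons with 1217 bp. W06A11.4 lies at chrII:4056030-4057653 on the plus strand, spans 1624 bp and is annotated as a pseudogene with 6 exons and 1039 bp of exon sequence. Their places differ: srw-85 stands at 92.9% of the length of chromosome V, 1.49 Mb from its end, and W06A11.4 at 26.6% of the length of chromosome II, 4.06 Mb from the nearest end. The deposited table counts srw-85 over a width of 1296 bp and W06A11.4 over 1044 bp. No deposited source names the build of the windows, so their place on the annotation was checked against the gene counts. Among 60 genes around srw-85, window sums over the exons correlated with the gene counts at r = 0.889 with no shift, and at no more than 0.652 with shifts of 2000 bp or more. Among 62 genes around W06A11.4 these values were 0.931 and 0.578.

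Each library held between 30171874 and 45677214 gene counts and between 63512536 and 92014755 window counts. Of the window counts 9.93% to 38.05% lay at the ribosomal end of chromosome I and 9.41% to 17.4% on the mitochondrial genome. The targeted genes were lower in the libraries labelled as their deletion. The gene met-2 stood at 80.3 and 72.0 CPM (counts per 1000000 of the TMM-adjusted library) in met-2 set-25 embryos, against 413 and 416 CPM in cec-4 embryos and 399.7 and 357.5 CPM in wild-type. Likewise set-25 had 28.4 and 23.1 CPM in met-2 set-25 embryos, against 117.0 and 115.6 CPM in cec-4 embryos and 113.3 and 95.3 CPM in wild-type. The gene cec-4 had 99.7 and 77.9 CPM in cec-4 embryos, against 315.5 and 285 CPM in met-2 set-25 embryos and 282 and 272 CPM in wild-type. Reads from parts of a deleted gene that remain would still be counted. All 15 markers of maternal RNA and all 12 of early zygotic genes were detected, with summed levels of 1472 to 1868 and 366 to 399 CPM in met-2 set-25 embryos, 2076 to 2190 and 389 to 394 CPM in cec-4 embryos, and 1522 to 2167 and 364 to 422 CPM in wild-type.

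The chemoreceptor gene srw-85 was close to silent in wild-type embryos and readily counted in both mutants. It had 241 and 319 counts in met-2 set-25 embryos, 156 and 216 in cec-4 embryos, and 5 and 4 in wild-type. Scaled to library size these are 7.98 and 7.84 CPM in met-2 set-25, 3.54 and 6.31 CPM in cec-4, and 0.109 and 0.0955 CPM in wild-type. Every mutant library stood far above both wild-type libraries, and the met-2 set-25 libraries, which lay close to each other, were above the cec-4 libraries, which lay apart. The means were 7.91 ± 0.101 CPM in met-2 set-25, 4.93 ± 1.96 CPM in cec-4 and 0.102 ± 0.00988 CPM in wild-type (SD, n = 2 each).

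The fitted log2 fold change of srw-85 was 6.22 (SE 0.475) in met-2 set-25 over wild-type and 5.54 (SE 0.471) in cec-4 over wild-type. Because the wild-type libraries held so few counts, the size of these folds is loosely set. From the summed counts alone the ratio to wild-type was 76.9 (95% exact interval 40.2 to 169) for met-2 set-25 and 46.3 (24.1 to 102) for cec-4, intervals that cover counting error only. On the authors' deposited log2 scale, where a constant of 8 is added to each scaled count, the differences were smaller, 4.78 in met-2 set-25 and 3.96 in cec-4 against wild-type.

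The pseudogene W06A11.4 was already transcribed in wild-type embryos and was higher by a smaller factor in the mutants. It had 338 and 409 counts in met-2 set-25 embryos, 422 and 257 in cec-4 embryos, and 169 and 128 in wild-type. These correspond to 11.2 and 10.05 CPM in met-2 set-25, 9.58 and 7.51 CPM in cec-4, and 3.70 and 3.05 CPM in wild-type. Every mutant library was above both wild-type libraries, and both met-2 set-25 libraries were above the cec-4 ones, with the lower of the pair close to the higher cec-4 library. The means were 10.6 ± 0.809 CPM in met-2 set-25, 8.55 ± 1.46 CPM in cec-4 and 3.38 ± 0.455 CPM in wild-type (SD, n = 2 each). The fitted log2 fold change was 1.65 (SE 0.281) in met-2 set-25 and 1.34 (SE 0.279) in cec-4, both over wild-type. The ratios of summed counts were 3.11 (95% exact interval 2.71 to 3.57) for met-2 set-25 and 2.56 (2.23 to 2.94) for cec-4.

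**Figure D1:**
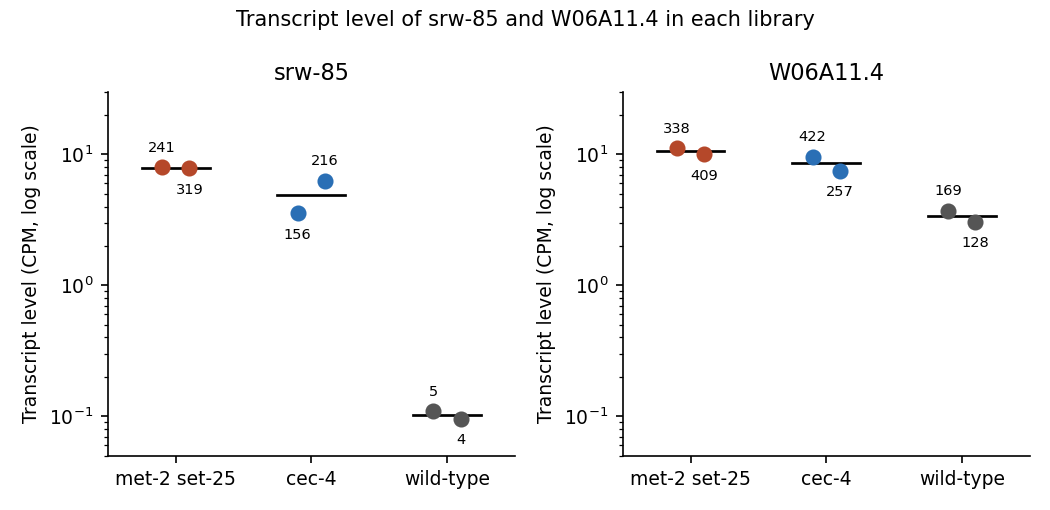
Transcript level of srw-85 (left) and W06A11.4 (right) in each library, in CPM on a log axis, for met-2 set-25, cec-4 and wild-type embryos. Points are libraries labelled with their raw counts and lines are group means (n = 2 each). For srw-85 the wild-type libraries lie near 0.1 CPM and all mutant libraries between 3.54 and 7.98 CPM, while for W06A11.4 the wild-type libraries lie at 3.05 and 3.70 CPM.

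Per length, the levels of the genes in the mutants sat in the middle of the range of all genes. As RPKM, which is CPM divided by the deposited width in kb, srw-85 averaged 6.10 in met-2 set-25, 3.80 in cec-4 and 0.0791 in wild-type, above 57.3%, 54.2% and 22.6% of all genes in those genotypes. W06A11.4 averaged 10.2 RPKM in met-2 set-25, 8.19 in cec-4 and 3.23 in wild-type, above 61.4%, 59.9% and 52.5% of genes. In extracts of whole embryos, more cells with a transcript and more transcript per cell cannot be told apart.

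The genes started from very unequal levels in wild-type, relative to what they reached in the mutants. The wild-type level of srw-85 equalled 1.29% of its met-2 set-25 level and 2.08% of its cec-4 level. For W06A11.4 these shares were 31.8% and 39.5%.

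The difference between the mutants was not used to choose the genes and was tested. The question is whether loss of the protein that anchors H3K9-methylated chromatin gave as much transcript as loss of the enzymes that methylate it. The mean level in cec-4 was 62.3% of that in met-2 set-25 for srw-85 and 80.4% for W06A11.4. Counted from the wild-type level, the gain in cec-4 was 61.8% of that in met-2 set-25 for srw-85 and 71.3% for W06A11.4. For srw-85 the log2 fold change of met-2 set-25 over cec-4 was 0.69 (SE 0.336, 95% interval -0.08 to 1.46), a fold of 1.61 with an interval of 0.944 to 2.74. It did not pass edgeR's quasi-likelihood test (unadjusted p = 0.0740, adjusted p = 0.531 over 13951 genes). For W06A11.4 the log2 fold change was 0.31 (SE 0.272, 95% interval -0.31 to 0.93), a fold of 1.24 with an interval of 0.807 to 1.91, and it did not pass either (edgeR, unadjusted p = 0.282, adjusted p = 0.756). These intervals leave room for equal levels and, for srw-85, for a more than doubled level in met-2 set-25. For comparison, the same test called 0.609% of all genes higher in met-2 set-25 and 0.0287% lower.

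The 500 bp windows show where along srw-85 the reads lay. The gene is read from right to left, beginning in chrV:19431001-19431500 and ending in chrV:19429001-19429500. The window chrV:19430001-19430500, over the middle of the gene, held 158 and 242 counts in met-2 set-25, 127 and 185 in cec-4, and 1 and 1 in wild-type. The next, chrV:19429501-19430000, held 135 and 176 counts in met-2 set-25, 91 and 141 in cec-4, and 7 and 5 in wild-type. These neighbouring windows carried most of the reads over the gene, 46.05% and 36.2% in met-2 set-25 and 50.5% and 37.6% in cec-4. The middle window holds the third exon of the coding transcript, while more of it is exon in the non-coding transcript C25F9.1d, in which the second exon runs through the intervening intron. The ratio of summed counts to wild-type in the middle window was 263.5 (95% exact interval 72.5 to 2183) for met-2 set-25 and 162.8 (44.7 to 1351) for cec-4.

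Coverage was thinner over the 5′ exons. The window chrV:19430501-19431000, which holds the end of the first exon and most of the second, had 22 and 41 counts in met-2 set-25, 9 and 9 in cec-4, and 0 and 0 in wild-type. Against a floor of 3 counts over the wild-type group it was at least 27.7-fold higher in met-2 set-25 and at least 6.26-fold higher in cec-4. Here the mutants stood further apart than over the rest of the gene, with a log2 fold change of met-2 set-25 over cec-4 of 2.10 (SE 0.521), which did not pass after adjustment over all 108036 windows tested (edgeR, unadjusted p = 0.00149, adjusted p = 0.149). Under 11 alternatives to that fit the log2 fold change was 1.81 to 2.33, the adjusted p ranged between 0.0108 and 0.999, and 4 alternatives called it. Over all windows, met-2 set-25 was called higher than cec-4 in 0.495% and lower in 0.0296%.

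The outermost windows of srw-85 also hold bases outside the gene. At the 5′ end chrV:19431001-19431500 had 26 and 32 counts in met-2 set-25, 17 and 13 in cec-4, and 0 and 4 in wild-type, and this window also takes in a tRNA pseudogene, C25F9.t5. At the 3′ end chrV:19429001-19429500 had 11 and 23 counts in met-2 set-25, 12 and 14 in cec-4, and 2 and 8 in wild-type. The few wild-type reads lay mostly in the windows at the 3′ end of the gene.

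**Figure D2:**
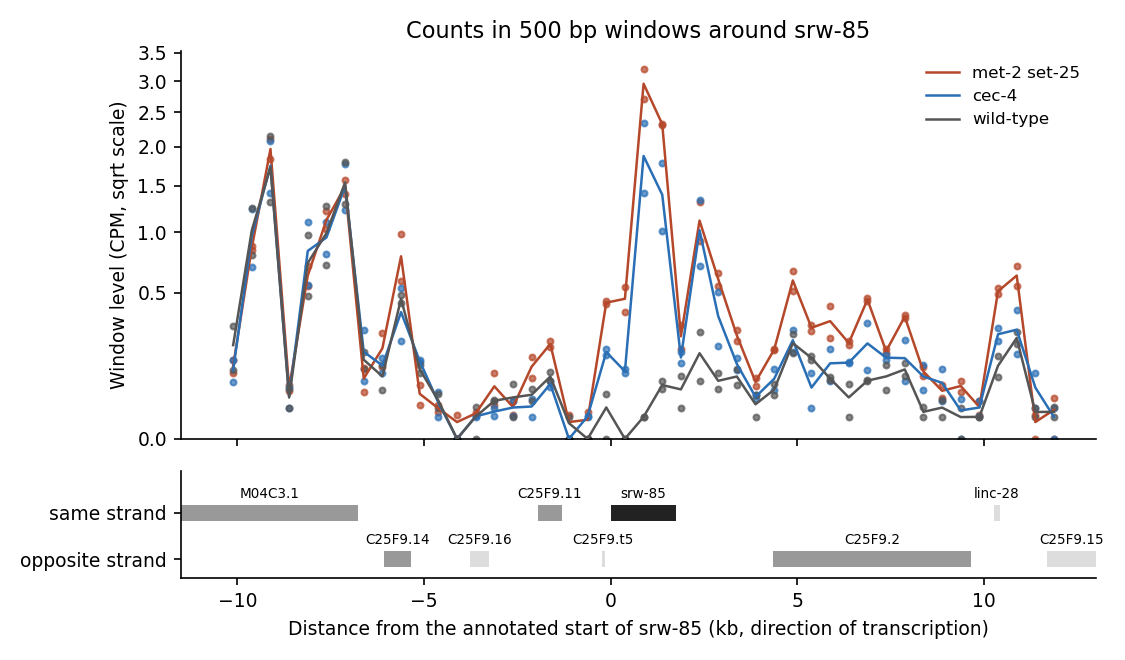
Level of each 500 bp window around srw-85 in CPM (square-root axis) against the distance of its centre from the annotated start of the gene in kb, positive in the direction of transcription. Lines are means and points the 2 libraries of met-2 set-25, cec-4 and wild-type, and the strip below shows annotated genes (black, srw-85; dark grey, other genes in the count table; light grey, genes not in it). The wild-type line stays near 0 over srw-85, where the mutant lines peak, and the met-2 set-25 line stays above the wild-type line at most windows downstream.

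For W06A11.4 the mutants were above wild-type in the windows from the second exon on. The windows chrII:4056501-4057000, chrII:4057001-4057500 and chrII:4057501-4058000 lie over exons from the second to the last. The first of them held 116 and 138 counts in met-2 set-25, 106 and 75 in cec-4, and 55 and 25 in wild-type. The middle one held 143 and 183 counts in met-2 set-25, 194 and 109 in cec-4, and 80 and 76 in wild-type. The last held 88 and 117 counts in met-2 set-25, 146 and 79 in cec-4, and 35 and 40 in wild-type. In each of these windows the lower mutant library exceeded the higher wild-type library. The ratios of summed counts to wild-type in these windows were 4.18, 2.75 and 3.601 for met-2 set-25 and 2.36, 2.03 and 3.13 for cec-4.

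The first window of W06A11.4, chrII:4056001-4056500, held few reads and its libraries disagreed, with 25 and 3 counts in met-2 set-25, 21 and 13 in cec-4, and 6 and 3 in wild-type. Without the first met-2 set-25 library its log2 fold change in met-2 set-25 over wild-type was -0.35, so no direction is given for it. No window over W06A11.4 passed the test of met-2 set-25 against cec-4, with an adjusted p of 0.496 or more in each (edgeR).

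**Figure D3:**
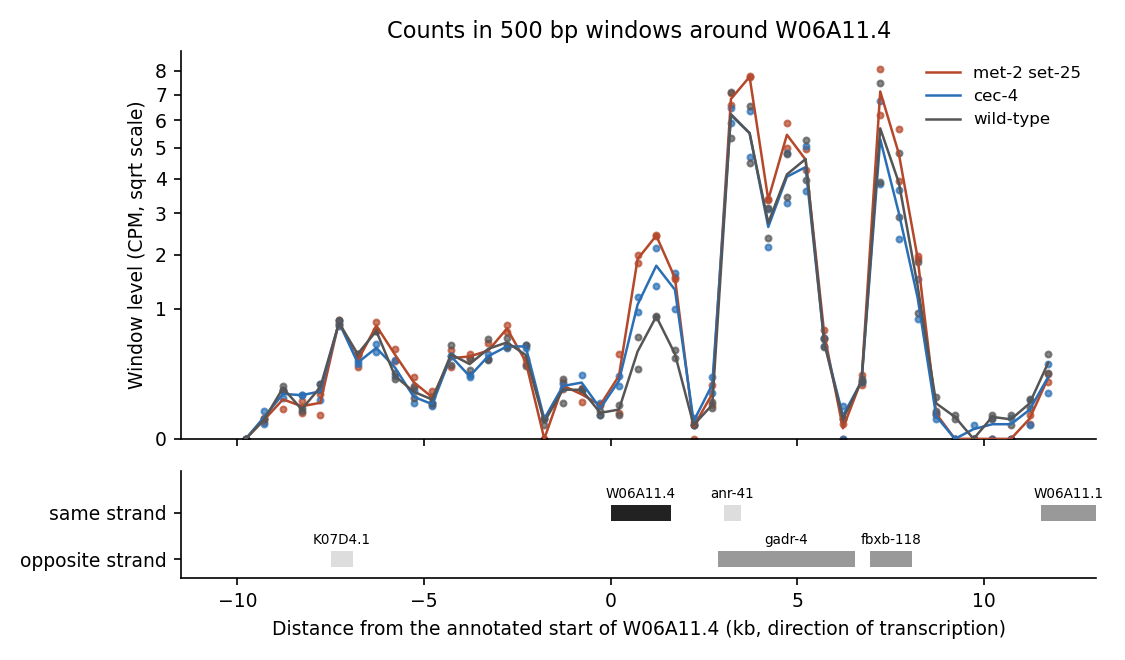
Level of each 500 bp window around W06A11.4 in CPM (square-root axis) against the distance of its centre from the annotated start of the gene in kb, drawn with the same colours and strip as for srw-85. The met-2 set-25 and cec-4 lines lie above the wild-type line over the pseudogene, and the lines of all genotypes run close together on both sides of it.

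The windows beside the genes share no base with them and were picked by position, so each mutant could be tested against wild-type there. Of 40 windows within 10 kb of srw-85, 24 had enough counts to be tested. Counts in any 2 libraries could suffice for this, so a window could enter through the mutants alone. In met-2 set-25, 2 of these 24 were higher than in wild-type and 0 were lower, where 0.446% of all windows tested were called higher and 0.0241% lower. In cec-4, 0 of the 24 passed in either direction by edgeR's test, 4 had an unadjusted p under 0.05, and 0.00185% of all windows tested were called higher.

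The windows that passed adjoin each other just downstream of srw-85. The nearer, chrV:19428501-19429000, starts 387 bp past the annotated 3′ end and held 77 and 69 counts in met-2 set-25, 63 and 106 in cec-4, and 7 and 23 in wild-type. All mutant libraries were above both wild-type libraries there. By edgeR, the log2 fold change here was 2.69 (SE 0.513, unadjusted p = 1.33e-04, adjusted p = 0.0337) in met-2 set-25. In cec-4 it was 2.56 (SE 0.510, unadjusted p = 1.97e-04, adjusted p = 1.0), so the unadjusted values were close. The change in met-2 set-25 over cec-4 was 0.13 (edgeR adjusted p = 0.951). The further one, chrV:19428001-19428500, starts 887 bp past the 3′ end and held 32 and 49 counts in met-2 set-25, 18 and 40 in cec-4, and 9 and 5 in wild-type. By edgeR, the log2 fold change was 2.90 (SE 0.551, unadjusted p = 1.29e-04, adjusted p = 0.0331) in met-2 set-25 and 2.12 (SE 0.563, unadjusted p = 0.00215, adjusted p = 1.0) in cec-4.

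Both calls depend on both met-2 set-25 libraries. Without the first met-2 set-25 library the log2 fold change was 2.41 in the nearer window (adjusted p = 0.216) and 3.01 in the further one (adjusted p = 0.107). Without the second it was 2.93 (adjusted p = 0.0982) and 2.75 (adjusted p = 0.293). The further window also missed the threshold without the second wild-type library (2.56, adjusted p = 0.052). The nearer window stayed called without either wild-type library, at 2.06 without the first (adjusted p = 0.0282) and 3.80 without the second (adjusted p = 1.8e-04). With scaling factors from the gene table in place of those from the windows, the log2 fold change was 2.60 in the nearer window (adjusted p = 0.147) and 2.81 in the further one (adjusted p = 0.119). The nearer window was also called in cec-4 without the second wild-type library (3.68, adjusted p = 0.00827) and with no filter on low counts (2.56, adjusted p = 4.28e-05). All these are edgeR values against wild-type.

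The sides of srw-85 differed. Downstream, 13 of 13 tested windows had a positive log2 fold change in met-2 set-25, with a median of 1.69, and 11 of them had an unadjusted p under 0.05. In cec-4 12 of the 13 were positive, with a median of 0.62, and 4 had an unadjusted p under 0.05. Of all windows tested 4.72% in met-2 set-25 and 1.78% in cec-4 had an unadjusted p under 0.05, in either direction. Over all windows tested 46.5% were positive in met-2 set-25 and 47.7% in cec-4, with medians of -0.03 and -0.02. A window could pass the count filter through the mutants alone, as chrV:19424001-19424500 did. It held 26 and 35 counts in met-2 set-25, 10 and 25 in cec-4, and 7 and 7 in wild-type. The downstream windows left untested held at most 10 counts in any library and are not in these tallies. The tallies are therefore a description. Upstream, 5 of 11 tested windows were positive in each mutant, with medians of -0.05 in met-2 set-25 and -0.04 in cec-4. The upstream windows at chrV:19431501-19432500 held at most 1 count in any library, so reads around srw-85 ended near its annotated start.

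Summed over the 20 downstream windows, the level was 6.11 and 5.99 CPM in met-2 set-25, 2.42 and 4.64 CPM in cec-4, and 1.49 and 1.84 CPM in wild-type. This sum includes the windows called in met-2 set-25, and how often other stretches of 20 windows keep the genotypes apart was not counted. Over the 20 upstream windows the level was 7.16 and 8.53 CPM in met-2 set-25, 5.58 and 8.74 CPM in cec-4, and 5.67 and 8.996 CPM in wild-type, where all genotypes overlapped. The sum was also taken over the 18 downstream windows beyond 1 kb, a limit set after the called windows had been seen. It was 4.24 and 4.42 CPM in met-2 set-25, 1.52 and 2.79 CPM in cec-4, and 1.31 and 1.51 CPM in wild-type, and 11 of its 11 tested windows were positive in met-2 set-25 with a median of 1.62 and 0 of them called (edgeR, 9 with an unadjusted p under 0.05). There the lower cec-4 library was level with wild-type. The tested windows could again have entered through the mutants alone. Neighbouring windows can share reads and transcripts, so they are not independent of each other.

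The windows beside W06A11.4 gave no calls. Of its 40 flanking windows 26 were tested, and 0 passed in either mutant, with 0 at an unadjusted p under 0.05 (edgeR). In met-2 set-25 17 of the 26 were positive with a median of 0.18, and in cec-4 8 were positive with a median of -0.07. By side, 10 of 12 downstream windows were positive in met-2 set-25 with a median of 0.30 and 7 of 14 upstream with a median of -0.01. In cec-4 3 of 12 downstream and 5 of 14 upstream were positive, with medians of -0.04 and -0.18. In met-2 set-25 the windows of smallest p were chrII:4050001-4050500, chrII:4059501-4060000 and chrII:4060501-4061000, with log2 fold changes of 0.83, 0.49 and 0.40. In cec-4 they were chrII:4058501-4059000, chrII:4049501-4050000 and chrII:4052001-4052500, with 1.35, -0.49 and -0.51. Summed over the 20 upstream windows the level was 5.49 and 5.63 CPM in met-2 set-25, 4.85 and 5.11 CPM in cec-4, and 4.82 and 5.75 CPM in wild-type. Over the 20 downstream windows it was 44.4 and 41.9 CPM in met-2 set-25, 39.0 and 28.2 CPM in cec-4, and 42.3 and 28.9 CPM in wild-type. Upstream, the wild-type libraries lay on both sides of all mutant libraries, and downstream a wild-type library lay between those of met-2 set-25.

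**Figure D4:**
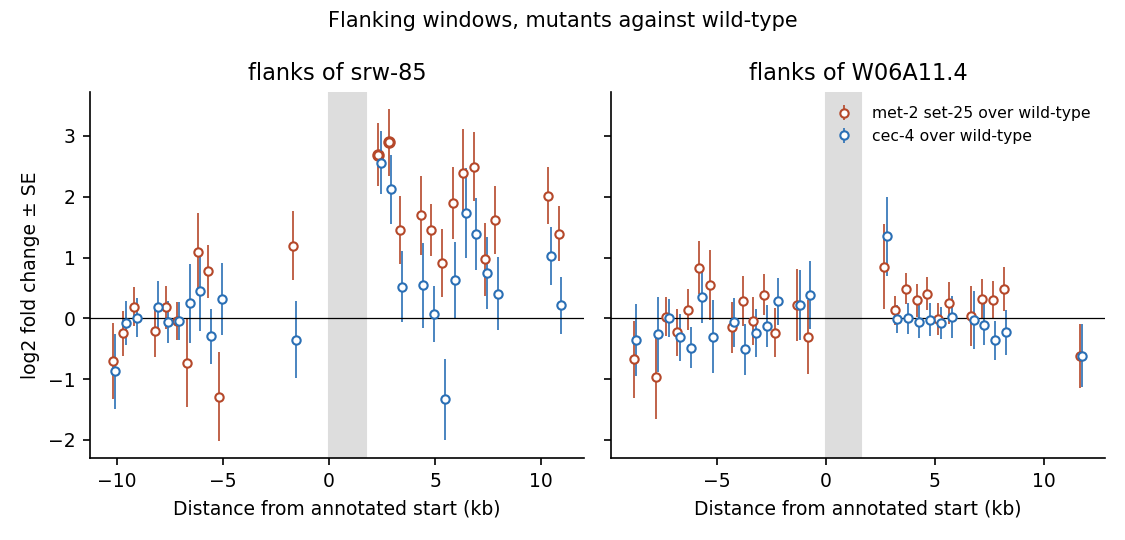
The log2 fold change of each tested 500 bp window beside srw-85 (left) and W06A11.4 (right), for met-2 set-25 over wild-type and cec-4 over wild-type, against the distance of its centre from the annotated start in kb; bars are ± SE, the grey band is the gene and heavy rings mark windows with an adjusted p under 0.05. All 13 windows to the right of srw-85 are above 0 in met-2 set-25, and those beside W06A11.4 lie on both sides of 0.

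Annotated genes near srw-85 did not pass the test. Of the 8 genes within 10 kb, 4 were in the count table and 3 had enough counts, and 0 of these 3 were called in either mutant, against 0.659% of all genes called higher in met-2 set-25 and 0.00717% in cec-4 (edgeR, 0 of the 3 with an unadjusted p under 0.05 in either). With so small a share called in cec-4, 0 calls there do not set any neighbours apart from other genes. M04C3.1 upstream had log2 fold changes of -0.10 (SE 0.36) in met-2 set-25 and 0.08 in cec-4. C25F9.14, also upstream, had 1.095 (SE 0.516) in met-2 set-25 and 0.16 in cec-4. C25F9.11, too low to test, had 7 and 12 counts in met-2 set-25, 6 and 5 in cec-4, and 7 and 6 in wild-type. Within 50 kb, 0 of 15 tested genes were called in either mutant, 12 were positive in met-2 set-25 with a median of 0.74 and 11 in cec-4 with a median of 0.18, where 45.9% and 45.3% of all genes were positive. In met-2 set-25 2 of the 15 had an unadjusted p under 0.05, and in cec-4 0 did, where 5.71% and 0.939% of all genes tested had one. Genes too could enter the test through the mutants alone, so these tallies are a description.

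C25F9.2 lies downstream of srw-85 on the opposite strand and spans 5304 bp, under most of the downstream windows. As a gene it had 10 and 25 counts in met-2 set-25, 11 and 20 in cec-4, and 10 and 8 in wild-type, with a log2 fold change of 1.22 (SE 0.591, edgeR adjusted p = 0.9997) in met-2 set-25 and 0.98 (SE 0.598, adjusted p = 0.9998) in cec-4. The 10 windows wholly inside it held far more reads, 153 and 199 in met-2 set-25, 75 and 134 in cec-4, and 73 and 73 in wild-type. In these windows that is 2.63 and 2.64 CPM in met-2 set-25, 0.836 and 1.69 CPM in cec-4, and 0.813 and 0.844 CPM in wild-type. Over all libraries the gene count was 11.9% of the window counts, although the deposited width covers 4410 bp of the span. Among 269 genes with at least 5 windows, an exon share of at least 0.7 and at least 100 window counts the median was 98.8%, and 1 gene was lower than C25F9.2. Most reads of these 10 windows were thus not assigned to C25F9.2. No source used here says whether strand was used in counting genes or windows, and which transcript these reads belong to was not tested.

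Near W06A11.4, 5 genes were annotated within 10 kb, 3 were in the count table and were tested, and 0 passed in either mutant (edgeR, 0 with an unadjusted p under 0.05). The log2 fold change of gadr-4, just downstream of the pseudogene on the opposite strand, was 0.21 in met-2 set-25 and 0.07 in cec-4. For fbxb-118, which encodes an F-box protein, it was 0.31 in met-2 set-25 and -0.24 in cec-4, and for W06A11.1 it was -0.51 and -0.22. Within 50 kb, 0 of 13 tested genes were called, 7 were positive in met-2 set-25 and 6 in cec-4. An unadjusted p under 0.05 was found for 2 of them in met-2 set-25 and 0 in cec-4, beside the same shares of all genes.

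The other srw genes show whether the level of srw-85 was shared by its family, a family defined here by name. The list was drawn from the count table, so srw genes absent from it are left out. Of the 106 listed, 24 had no count in any library, 82 had at least 1, and 5 had enough to be tested. Of these 5, 0 were called in either mutant (edgeR), and 2 in met-2 set-25 and 1 in cec-4 had an unadjusted p under 0.05. The genes with such a p passed the count filter only through the genotype where they were high. For srw-82 and srw-61 this was met-2 set-25, and for srw-23 it was wild-type. Their share of the 5 is therefore not a result about the family. Over all genes tested, 0.659% were called higher in met-2 set-25 and 0.00717% in cec-4, and 5.71% and 0.939% had an unadjusted p under 0.05. With so small a share called in cec-4, 0 calls there do not set the rest of the family apart from other genes. The 106 genes together held 174 and 206 counts in met-2 set-25, 194 and 147 in cec-4, and 182 and 211 in wild-type. Scaled to library size these sums were 5.76 and 5.06 CPM in met-2 set-25, 4.404 and 4.30 CPM in cec-4, and 3.98 and 5.04 CPM in wild-type. Both met-2 set-25 libraries were the highest, the lower of them level with the higher wild-type library, and the cec-4 libraries lay within the wild-type range.

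Among the tested family members, srw-82 had 16 and 24 counts in met-2 set-25, 0 and 2 in cec-4, and 3 and 2 in wild-type. Its log2 fold change in met-2 set-25 over wild-type was 3.23 (edgeR adjusted p = 0.132). The gene srw-61 had 19 and 15 counts in met-2 set-25, 5 and 5 in cec-4, and 3 and 2 in wild-type, with 3.04 (adjusted p = 0.108). In both, the met-2 set-25 libraries stood above all others, and the cec-4 counts were near those of wild-type. The gene srw-23 had 6 and 16 counts in met-2 set-25, 6 and 9 in cec-4, and 23 and 23 in wild-type, and its log2 fold change in cec-4 was -1.42. The gene srw-14 had 18 and 16 counts in met-2 set-25, 15 and 13 in cec-4, and 20 and 35 in wild-type, with -0.81 in cec-4, and srw-95 had -0.22 in met-2 set-25 and 0.28 in cec-4. None of these passed. The family members nearest to srw-85, srw-84 and srw-86, lie within 50 kb and held at most 2 counts in any library. Reads that fit several copies of a family can be split between them, and no source used here says how the authors treated them.

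**Figure D5:**
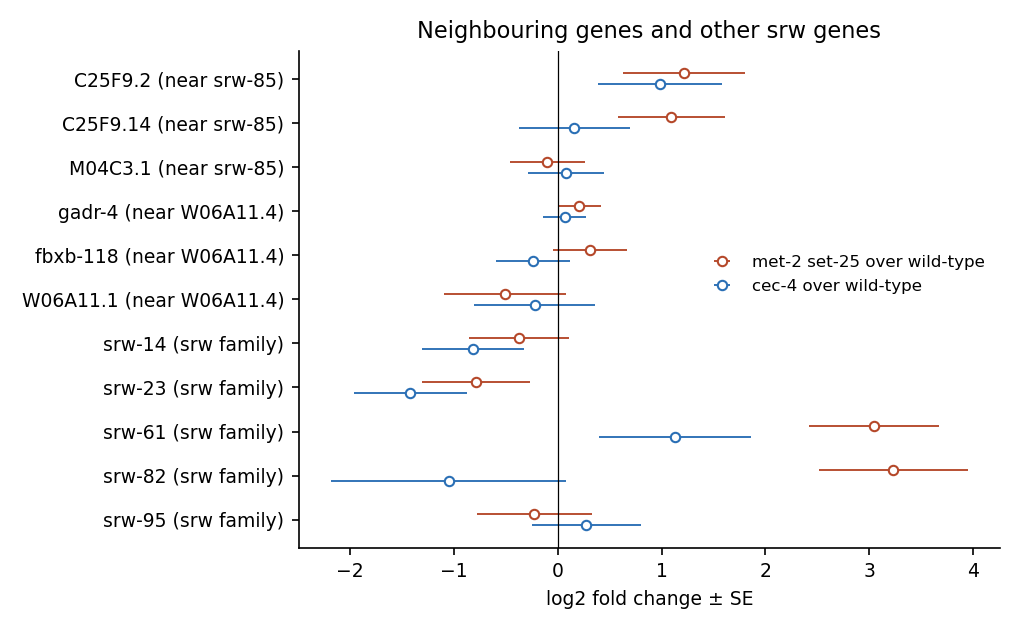
The log2 fold change of met-2 set-25 over wild-type and of cec-4 over wild-type for the tested genes within 10 kb of srw-85 and of W06A11.4 and for the tested srw genes other than srw-85; bars are ± SE. None passed an adjusted p of 0.05, and srw-61 and srw-82 lie furthest to the right, in met-2 set-25.

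Over the 6 libraries, the profile nearest to that of srw-85 among 13950 other genes was that of W06A11.4. Likeness was the Euclidean distance between log2(CPM + 0.5) values after subtracting each gene's mean, and is a description, since the profiles include the values by which the genes were chosen. The distance between them was 2.57 and the next genes were R10F2.6 at 2.77, enu-3.2 at 2.81, enu-3.3 at 2.85 and btb-4 at 2.90. These distances are large: counted from W06A11.4, srw-85 ranked 13862 of the 13950. Of the next genes, enu-3.2, for example, was near its wild-type level in cec-4. It averaged 17.9 CPM in met-2 set-25, 3.22 CPM in cec-4 and 2.38 CPM in wild-type. No gene lay within a distance of 1 of srw-85.

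W06A11.4 had nearer company, with 19 genes within a distance of 1. The closest was ZC204.14, also on chromosome II, at 0.493, with means of 17.3 CPM in met-2 set-25, 15.3 CPM in cec-4 and 7.87 CPM in wild-type. It was followed by ugt-64 at 0.609, which encodes a UDP-glucuronosyltransferase and averaged 47.6 CPM in met-2 set-25, 29.9 CPM in cec-4 and 19.2 CPM in wild-type. Then came btb-4 at 0.719, C55C3.3 at 0.808 and T07F10.5 at 0.840. With Pearson's correlation as the measure 0 of the 5 nearest genes of srw-85 and 1 of the 5 of W06A11.4 were shared with these lists.

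Markers of sensory neurons and cilia, the cells in which chemoreceptors are used, were all present, 21 of 21 with none at 0. Their summed level was 377.5 and 422 CPM in met-2 set-25, 403 and 543 CPM in cec-4, and 411 and 563 CPM in wild-type, and 0 of the 20 tested were called in either mutant. No mutant library exceeded the higher wild-type library in this sum, and the part of these cells in the level of srw-85 was not tested. The 6 vitellogenin genes, made in the adult intestine, summed to less than 1 CPM in every library, with vit-4 at 0 throughout. The 13 sperm markers, of which 5 were at 0, summed to 18.5 and 15.3 CPM in met-2 set-25, 7.74 and 8.15 CPM in cec-4, and 6.24 and 7.49 CPM in wild-type, and 1 of the 4 tested was higher in met-2 set-25, against 0.659% of all genes. The sperm markers were higher in both met-2 set-25 libraries than in all others and in cec-4 stood near wild-type, and their part in the levels of srw-85 and W06A11.4 was not tested.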

How the data were processed

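Whole early embryos of 3 genotypes were sequenced (51 cycles, per the labels' protocols) after depletion of ribosomal RNA. The deposited tables hold raw counts per gene (20182) and per 500 bp window (200566), and the authors' log2 values. Recomputed from the counts, these equal log2 of a count, brought to the mean library size, plus 8 (largest deviation 5.15e-14). The aligner, the build, the use of strand and the treatment of reads with several matches are not stated in any source used here. Of the deposited gene widths 96.63% are multiples of 3, as for coding sequence.

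From the deposited counts, all 6 libraries entered one edgeR 4.0.16 fit (R 4.3.3) with genotype as the term, filterByExpr, TMM scaling and the quasi-likelihood test, for 13951 genes and, apart, 108036 windows. Benjamini-Hochberg adjustment ran over all of them, with a threshold of 0.05. Genes had a biological coefficient of variation of 21.7%. An SE is taken as the size of a log2 fold change over the root of its F statistic. CPM uses TMM-adjusted library sizes, and RPKM divides it by the deposited width. Ratios of summed counts have exact conditional binomial intervals at 95%, which, like the floor of 3 counts, cover counting error only. Replicates were separate cultures per the labels.

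The genes, the marker lists and the tests were chosen with earlier results of these data known. Apart from the srw-85 and W06A11.4 windows, the genes named are all genes within 10 kb with counts, up to 3 srw genes of smallest p per mutant with the other tested srw genes, and the 5 nearest profiles. Windows named outside the genes are those that passed or the 3 of smallest p. Gene positions are from the WBcel235 annotation, which placed 19513 genes, and the name W06A11.4 is that of its transcript there. The steps were tested on simulated data. Alternatives were other scalings and filters, DESeq2 1.42.0, limma 3.58.1 (voom, and on the authors' log2 values), fewer samples in the fit, a replicate block, left-out libraries and other reaches. The genes srw-95, srw-84 and srw-86 and the comparison of C25F9.2 with other genes were named after their values were seen.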

Additional observations from a re-analysis of the deposited data

How the results depend on the processing

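For srw-85 the log2 fold change over wild-type was positive under all 15 alternatives. The gene was chosen for this direction, so only the size of the log2 fold change is compared here. In met-2 set-25 it was 4.78 on the authors' log2 values and 6.12 with limma voom, and 6.15 to 6.32 with a library left out in turn. In cec-4 it was 3.96 on the authors' log2 values, where the added constant of 8 shrinks low counts. For W06A11.4 the range was 1.54 to 1.80 in met-2 set-25 and 1.15 to 1.52 in cec-4. The difference between met-2 set-25 and cec-4 passed under none of 15 alternatives, with log2 fold changes of 0.32 to 1.15 for srw-85 and 0.14 to 0.50 for W06A11.4, and adjusted p of at least 0.244 and 0.414. Of the srw genes, 1 (srw-82) was called higher in met-2 set-25 by limma on the authors' log2 values.

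The flanking windows of srw-85 called higher in met-2 set-25 numbered 0 with gene-table scaling factors, 4 with no filter on low counts, 4 with the replicate block, 1 with windows within 500 bp also left out, and 0 to 3 with a library left out in turn. In cec-4 they numbered 1 with no filter and 0 to 1 with a library left out (1 without the second wild-type library). The cause of these shifts was not tested.

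The replicate block rests on a shared number only. Deviations of same-numbered libraries correlated at 0.190 between met-2 set-25 and cec-4, 0.295 between met-2 set-25 and wild-type and 0.531 between cec-4 and wild-type, over 13951 genes. With the block, met-2 set-25 over cec-4 was 0.73 for srw-85 (edgeR adjusted p = 0.244) and 0.32 for W06A11.4 (adjusted p = 0.414), and calls over all genes over wild-type numbered 183 up and 8 down for met-2 set-25 and 1 up and 1 down for cec-4, against 92, 4, 1 and 0 without it.

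Values near 0 changed sign. For met-2 set-25 over cec-4, the window chrII:4056001-4056500 gave -0.0037 with gene-table factors, -0.069 with the block and -2.29 to 1.099 with a library left out. The window chrII:4057501-4058000 gave -0.092 to 0.65 with a library left out, and chrV:19428501-19429000 gave -0.090 with gene-table factors and -0.23 to 0.66 with a library left out. Over wild-type in met-2 set-25, M04C3.1 was 0.0035 on the authors' log2 values and -0.47 to 0.42 with a library left out, srw-14 -0.77 to 0.17 and W06A11.1 -0.98 to 0.19. In cec-4, with a library left out, srw-82 was -4.28 to 0.037, M04C3.1 -0.36 to 0.59, W06A11.1 -1.31 to 0.46, gadr-4 -0.12 to 0.30, fbxb-118 -0.55 to 0.18 and C25F9.14 -0.39 to 0.60. With 4 to 5 wild-type counts per library for srw-85, depth limits the size of its fold.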
